A study of Homo sapiens with 36 samples.

Results

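Sunitinib-resistant and parental cells of the line 786-O were compared by RNA sequencing. The comparison used the 18 libraries that the labels assign to 786-O, out of 36 in the series, 9 of resistant and 9 of parental cells, matched by antibody. 786-O is an established human line of clear cell renal cell carcinoma. Sunitinib is an oral inhibitor of receptor tyrosine kinases, among them the VEGF and PDGF receptors and KIT. Resistant cells had been grown in increasing sunitinib over about 4 months and were stable at 4 µM (the line's name is misspelt in that protocol). Parental cells had not been selected. All 18 libraries, parental ones included, came from cells treated for 24 h with an antibody that binds PD-L1 (10 mg/mL, a unit copied from the labels). Each state had 3 libraries with atezolizumab, 3 with avelumab and 3 with durvalumab. Whether sunitinib was present during the antibody treatment is not given in the sources used here. The series holds no library without antibody.

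All resistant libraries carry 1 batch label and all parental libraries another, and in every difference below the effect of resistance and that of batch cannot be told apart. Nothing in the labels ties the 3 libraries of a group to separate cultures. The p-values therefore describe the spread among these samples only, and that spread may be technical. Resistant libraries held 32083005 to 51966798 counts and parental libraries 32869829 to 58122896. Correlation of log2 levels across genes ran from 0.9934 to 0.9964 within resistant libraries and from 0.9929 to 0.996 within parental libraries, against 0.9472 to 0.9538 between the states. The labels for the line were checked against known features of 786-O. HIF1A, whose protein 786-O is known to lack, was at 8.71 CPM (a gene's count scaled by the total of its library) in resistant and 9.36 CPM in parental libraries, against 294 CPM in A498 parental cells, the other line of the series. PAX8, the transcription factor that marks renal epithelial tumours, was at 229.7 CPM in resistant and 291 CPM in parental libraries. PTPRC, which all leukocytes carry, had 1 count over the 9 resistant libraries and 1 over the 9 parental libraries. The libraries labelled A498 resistant are used here only in this check and in an alternative fit with all 36 libraries. Their mean profile correlated with that of 786-O resistant libraries at 0.99 and with A498 parental at 0.884, over 20752 genes. Resistant and parental 786-O correlated at 0.964. HIF1A was at 8.99 CPM in the libraries labelled A498 resistant.

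Clear cell renal carcinoma typically arises after loss of VHL, which leaves hypoxia-inducible factors active and drives VEGF production, glucose uptake and lipid storage. Sunitinib is a weak base that is known to collect in lysosomes, the acidic compartment where hydrolases break down proteins, lipids and glycans. Interferons switch on antiviral genes and the class I antigen presentation machinery, in which HLA heavy chains pair with β2-microglobulin to display peptides. Cells make ribosomes, chaperones and glycolytic enzymes from a small number of very abundant transcripts, so changes of these genes move more RNA than the genes of extreme fold change.

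Most of the transcriptome differed. With edgeR's quasi-likelihood test and Benjamini-Hochberg adjustment at 0.05, 83.8% of 19369 tested genes passed in the contrast averaged over the antibodies, 43.6% higher and 40.2% lower in resistant cells. Of all tested genes 14.5% were higher and 5.67% lower by at least 2-fold. The CPM values of the 9 resistant and the 9 parental libraries did not overlap for 53.3% of the genes, 32.7% higher and 20.6% lower. The median log2 change over all tested genes was 0.03, with quartiles of -0.37 and 0.56. Each gene group below is read by the size and the sign of its changes beside these shares. A list with counts near 43.6% higher and 40.2% lower is not read as shifted. When only genes of at least 5 mean CPM were tested (strict filter), 776 of 11652 were higher and 287 lower by 2-fold.

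The direction and the size of the changes differed with how many reads a gene took. Among 4406 genes under 1 CPM (mean of the libraries), the median log2 change was 0.49, and 33.3% were at least 2-fold higher and 11.5% at least 2-fold lower. The filter asks for counts in as few libraries as 1 group holds, so a gene this low can be tested through 1 state alone. That favours large changes among these genes, and their 2-fold shares are in part set by the filter. Among 7664 genes of 10 to 100 CPM the median was -0.08, with 4.97% higher and 2.73% lower by 2-fold. Among 2185 genes of 100 to 1000 CPM it was -0.16. Of the 83 genes above 1000 CPM, 21 passed higher and 49 lower, with a median of -0.27, and 5 were higher and 3 lower by 2-fold. The 100 genes of highest mean CPM took 17.0% ± 0.296 of the counts in resistant and 18.9% ± 0.298 in parental libraries (SD, n = 9 each). Protein coding genes took 94.9% of the counts in resistant and 95.1% in parental libraries, and long noncoding RNA genes took 3.77% and 3.73%.

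**Figure D1:**
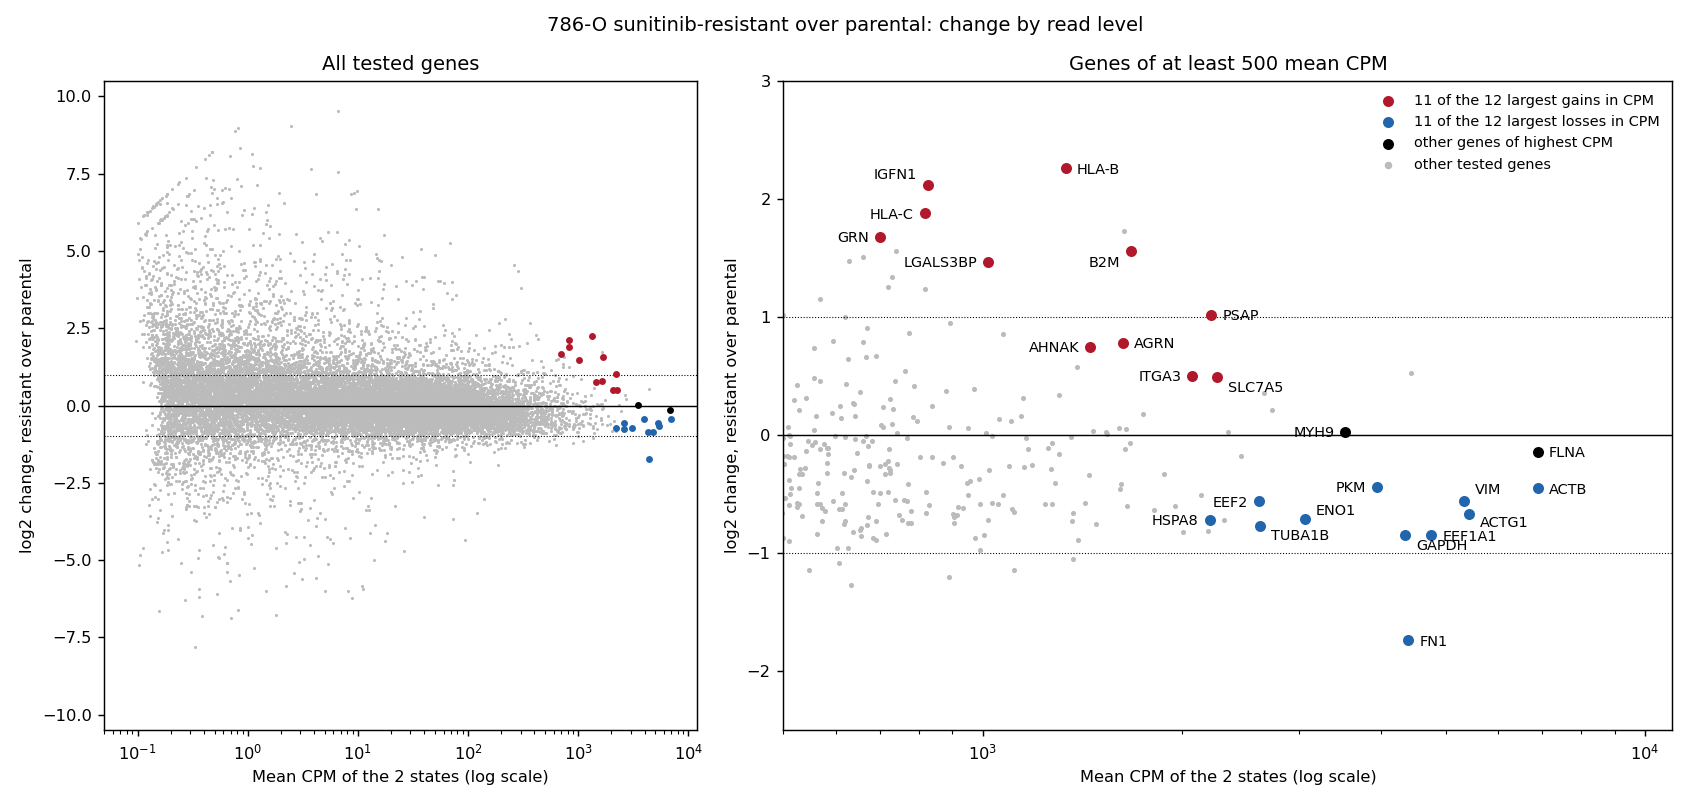
Log2 change (resistant over parental) against mean CPM of the 2 states on a log axis, 1 point per tested gene, with all tested genes on the left and genes of at least 500 CPM on the right. Dotted lines mark a 2-fold change; among abundant genes HLA-B, HLA-C, B2M and PSAP lie at or above the upper line, FN1 below the lower one, and most others between them.

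Levels below are CPM over the raw total of each library, and log2 changes come from the model, which also scales libraries by TMM, so a ratio of CPM and a log2 change differ slightly. A ± after a CPM or a share is the SD over 9 libraries, and after a log2 change the SE. Unless a sentence says otherwise, every change given for a named gene passed the averaged test, the largest adjusted p among them (edgeR) being 0.0076, for ABCG2. In bulk RNA, fewer cells that express a gene and less of its RNA per cell cannot be told apart. The authors' strand setting is not given in the sources used here, so a gene is called uncertain where 10% or more of its exons overlap another gene, where it belongs to a near-identical family, or where it has annotated pseudogenes.

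Outside ribosomal protein and mitochondrially encoded genes, HLA-B, B2M and PSAP were among the genes that gained the most reads in resistant cells. The 12 largest gains in CPM by that rule together took 2.49% of the counts in resistant and 1.04% in parental libraries, and made up 9.95% of all gains. HLA-B (chromosome 6, 31269491 to 31357188 on GRCh38) was at 2091, 2255 and 2342 CPM (lowest, median and highest) in resistant libraries, against 405, 434 and 465 CPM in parental libraries. B2M, the light chain of class I molecules (chromosome 15, 44711487 to 44718877), was at 2355, 2496 and 2852 CPM in resistant and at 769.9, 802 and 817 CPM in parental libraries. In both genes every resistant library was higher than every parental one, and the log2 changes were 2.26 ± 0.029 and 1.56 ± 0.029 (SE). HLA-C averaged 1306 and 328 CPM in resistant and parental libraries (1.88 ± 0.028). Both HLA heavy chain genes are uncertain as members of a family.

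Other large gains follow one by one. PSAP, the precursor of the saposins that help degrade sphingolipids (chromosome 10, 71816298 to 71851375), averaged 3041 ± 178 CPM in resistant and 1387 ± 38.6 in parental libraries, a log2 change of 1.02 ± 0.021. GRN, which encodes progranulin, a lysosomal and secreted glycoprotein (chromosome 17, 44345086 to 44353102), averaged 1086 ± 60.2 and 314 ± 8.69 CPM (1.68 ± 0.026). LGALS3BP, a secreted scavenger receptor domain protein, averaged 1527 ± 79.2 and 510 ± 12.9 CPM (1.47 ± 0.025). SLC7A5, the light chain of a large neutral amino acid transporter, averaged 2725 and 1797 CPM (0.49 ± 0.029) and has pseudogene copies. ITGA3, the laminin-binding integrin α3, averaged 2503 and 1642 CPM (0.50 ± 0.023), and AGRN, a basement membrane proteoglycan, 2115 and 1145 CPM (0.78 ± 0.038). None of these 6 genes overlapped between the states.

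A further pair of gains were less even across libraries. IGFN1, an immunoglobulin-like and fibronectin domain gene (chromosome 1, 201190825 to 201228952), ran from 1095 to 1950.1 CPM in resistant and from 229 to 488 CPM in parental libraries, with a log2 change of 2.12 ± 0.14. AHNAK, a very large scaffold protein, ran from 1386 to 2253 CPM in resistant and from 848 to 1505 CPM in parental libraries (0.75 ± 0.12). The states did not overlap for IGFN1 and did for AHNAK, and the highest parental library of both was durvalumab replicate 3.

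FN1 and EEF1A1 were among the genes that lost the most reads by the same rule. The 12 largest losses together took 3.77% of the counts in resistant and 5.81% in parental libraries, or 15.3% of all losses. FN1, which encodes fibronectin (chromosome 2, 215360440 to 215436172), was at 1686, 2176 and 2489 CPM in resistant libraries, against 5451, 6617 and 7778 CPM in parental libraries. No resistant library reached the lowest parental one, and the log2 change was -1.74 ± 0.060 (edgeR adjusted p = 1.02e-12). The remaining losses were smaller in fold. EEF1A1, the factor that brings aminoacyl-tRNA to the ribosome, averaged 3566 and 5947 CPM in resistant and parental libraries (-0.85 ± 0.029). GAPDH, a glycolytic enzyme often used as a reference gene, averaged 3249 and 5433 CPM (-0.85 ± 0.023), and ENO1 and PKM, later enzymes of the pathway, changed by -0.71 and -0.44.

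Cytoskeletal genes were part of this group. ACTG1 averaged 4376 and 6465 CPM in resistant and parental libraries (-0.67 ± 0.024), ACTB 6101 and 7705 CPM (-0.45 ± 0.026), VIM 4500 and 6145 CPM (-0.56 ± 0.023) and TUBA1B 2038 and 3215 CPM (-0.77 ± 0.024). HSPA8, the constitutive HSP70 chaperone, was at 1744 and 2658 CPM (-0.72 ± 0.030), and EEF2, the ribosomal translocase, at 2212 and 3017 CPM (-0.56 ± 0.023). TUBA1B-AS1, also among the 12 losses, overlaps TUBA1B over 80.2% of its exonic length, so its reads cannot be told apart from those of TUBA1B. GAPDH, VIM and TUBA1B are uncertain by overlap, and EEF1A1, ENO1, PKM, HSPA8 and the actins by pseudogenes. Of the 10 genes of highest CPM, FLNA (filamin A) and MYH9 (nonmuscle myosin IIA) were nearly level. FLNA averaged 6814 and 6954 CPM (-0.14 ± 0.034, edgeR adjusted p = 0.000696), a call lost when libraries were scaled by their totals alone (-0.03, adjusted p = 0.439) and with a strict filter on low counts (-0.06, adjusted p = 0.149). MYH9 averaged 3698 and 3357 CPM (0.03 ± 0.039, edgeR adjusted p = 0.449) and turned to -0.36 when GC content and length were adjusted for.

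**Figure D2:**
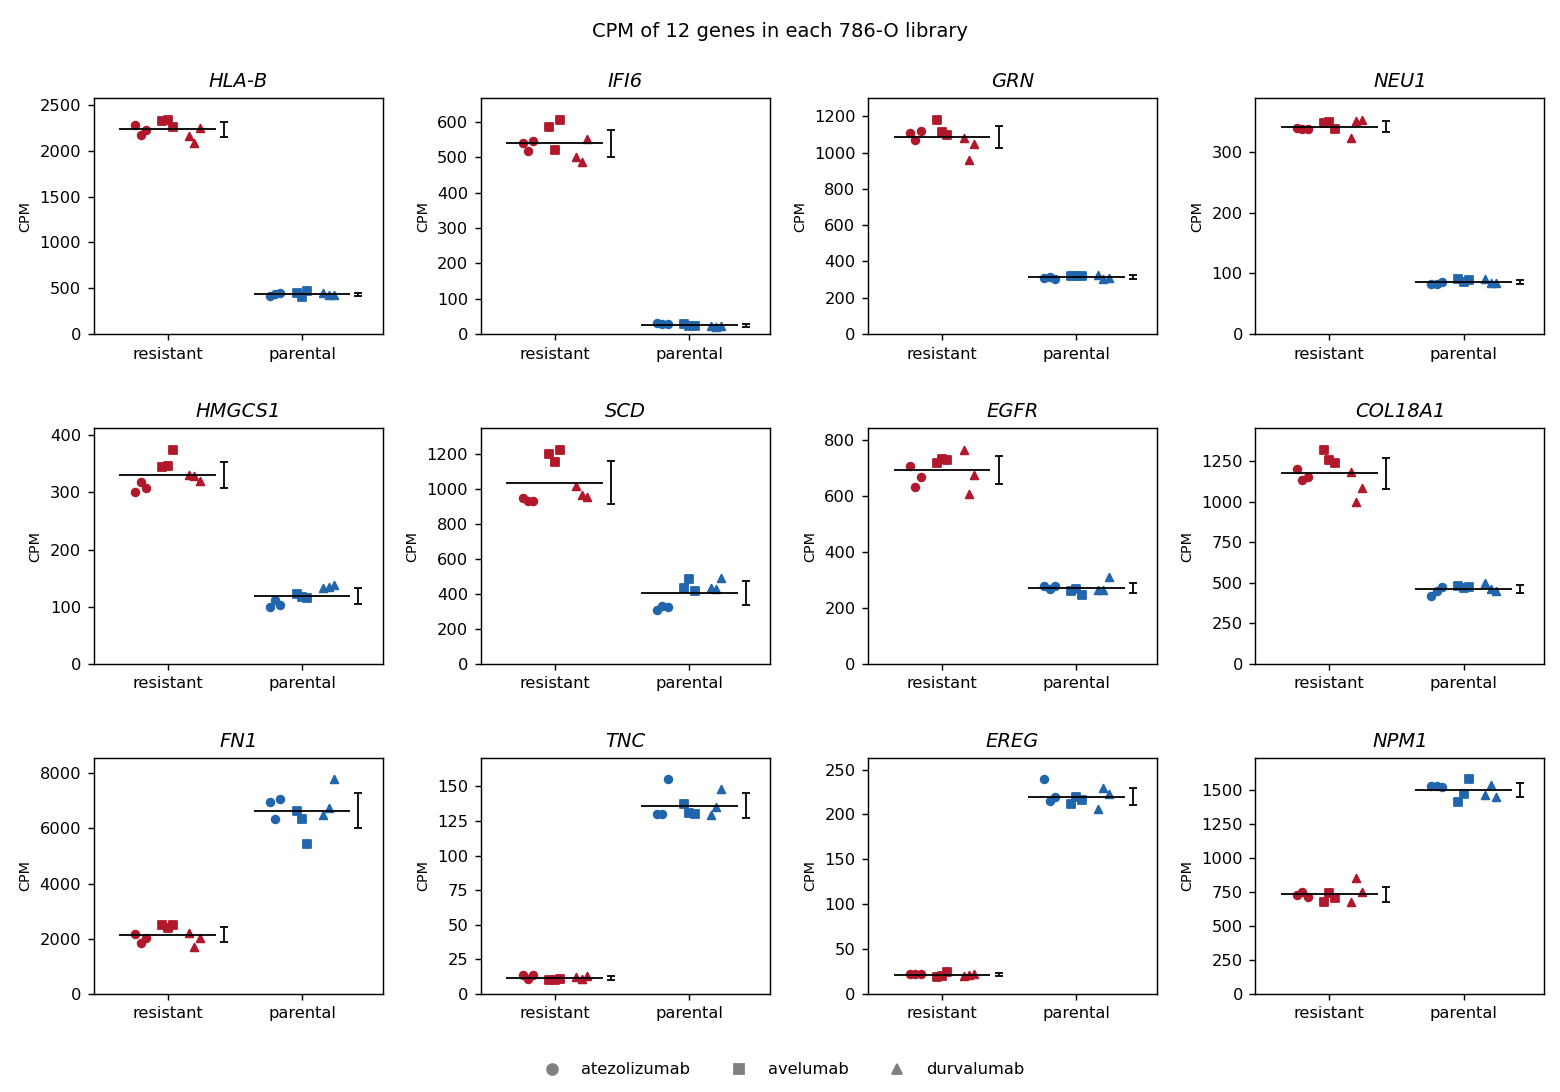
CPM (each axis from 0) of 12 genes in every library, resistant left of parental, with a marker for each antibody, a line at the mean of 9 libraries and a bar of ± SD beside it. In all 12 panels the resistant and parental libraries are separate; HLA-B runs from 2091 to 2342 CPM in resistant libraries and FN1 from 1686 to 2489 CPM.

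Interferon response genes were higher almost without exception. Of 52 listed and tested, 51 were higher and 0 lower (43.6% and 40.2% of all genes). Of these, 41 were at least 2-fold higher (14.5% of all genes), and the median log2 change was 1.80, against 0.03 for all genes. In 49 of the 52 the states did not overlap, with resistant libraries higher (32.7% of all genes). The list took 0.82% ± 0.031 of the counts in resistant and 0.264% ± 0.0099 in parental libraries. IFI6, a mitochondrial protein induced by type I interferon (chromosome 1, 27666061 to 27672218), was at 487, 541 and 607 CPM in resistant libraries and at 20.2, 22.5 and 31.2 CPM in parental libraries (4.36 ± 0.048). OAS3, which senses double-stranded RNA and makes the activator of RNase L, averaged 702 ± 45.9 and 133 ± 11.5 CPM (2.30 ± 0.036), and OAS2, of the same family, 135 ± 10.4 and 3.31 ± 1.06 CPM (5.27 ± 0.080). ISG15, a ubiquitin-like modifier, averaged 394 ± 23.7 and 73.9 ± 8.25 CPM (2.31 ± 0.045). Class I antigen presentation genes had 18 higher and 1 lower members among 21 tested, with 10 higher by 2-fold and a median of 0.85, and they took 1.47% ± 0.027 of the counts in resistant libraries against 0.656% ± 0.013 in parental ones.

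Interferon signalling acts through the interferon-stimulated response element in promoters. Its core, GAAA followed by any 2 bases and GAAA, was searched on both strands in RefSeq promoters (GRCh38.p14), 250 bases before to 50 after each start. It was found in 27 of the 41 list members that had a promoter in the table (65.9%) and in 3.65% of all 27305 promoters. Stretches of 3 of these promoters are printed 5′ to 3′ on the gene's strand, with the match in capitals, because these genes are among those described above.
LGALS3BP, chr17:78979952-78980001, minus strand: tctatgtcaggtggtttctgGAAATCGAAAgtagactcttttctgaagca
OAS3, chr12:112938442-112938473, plus strand: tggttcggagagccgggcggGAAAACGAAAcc
IFI6, chr1:27672256-27672307, minus strand: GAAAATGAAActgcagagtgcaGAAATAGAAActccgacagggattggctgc
LGALS3BP and OAS3 show 1 match in the stretch, and IFI6 shows a pair. A match describes these letters only, and the list itself was built from genes known to respond to interferon.

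NF-κB targets did not share this pattern. Of 25 tested, 12 were higher and 8 lower, with 7 and 2 by 2-fold and a median of 0.19. The list took 0.189% ± 0.011 of the counts in resistant and 0.146% ± 0.0081 in parental libraries, without overlap. ICAM1, an adhesion molecule for leukocytes, averaged 539 and 243 CPM in resistant and parental libraries (1.05 ± 0.042, uncertain by overlap), and TNFAIP3, a feedback inhibitor of the pathway, 63.4 and 23.6 CPM (1.33 ± 0.045). IL6 averaged 48.1 and 18.4 CPM (1.28 ± 0.068), uncertain by overlap, and CCL2, a monocyte chemokine, 10.0 and 2.23 CPM (2.09 ± 0.074).

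Lysosomal genes were shifted upward as a group, by less than interferon genes. Of 53 tested hydrolases and membrane proteins, 40 were higher and 8 lower (75.5% and 15.1%, beside 43.6% and 40.2% of all genes). By 2-fold 15 were higher and 1 lower (14.5% and 5.67% of all genes), and the median was 0.59. They took 1.3% ± 0.034 of the counts in resistant and 0.816% ± 0.0084 in parental libraries. NEU1, the lysosomal sialidase (chromosome 6, 31857659 to 31862906), was at 323, 339 and 353 CPM in resistant libraries and at 81.8, 84.9 and 90.9 CPM in parental libraries, without overlap (1.88 ± 0.026). NPC2, which hands cholesterol out of the lysosome, averaged 148 ± 7.32 and 51.3 ± 2.74 CPM in resistant and parental libraries (1.42 ± 0.029). The proton pump and autophagy genes changed less. Subunits of the vacuolar ATPase had 13 higher and 5 lower members among 21 tested (median 0.19), with ATP6AP1 at 277 and 212 CPM (0.28 ± 0.023) and ATP6V0E1 at 273 and 210.5 CPM (0.27 ± 0.026). Autophagy genes had 18 higher and 12 lower members among 33 tested (54.5% and 36.4%, beside 43.6% and 40.2% of all genes, median 0.13). OPTN, a cargo receptor, averaged 272 and 174 CPM (0.54 ± 0.025), and ATG10, a conjugating enzyme, 154 and 265 CPM (-0.89 ± 0.038).

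Many lysosomal promoters carry the CLEAR element, which TFEB and TFE3 bind. Its core TCACGTG, searched on both strands in the same way, was in 9 of 36 listed promoters (25.0%) and in 3.82% of all promoters. The list is made of known lysosomal genes, counted here whatever their change, so this share does not bear on the difference between the states. The same holds for the motif shares given below for other lists. Printed are promoters of NEU1 and of CTSD and CTSA, a pair of abundant proteases of this list chosen for display after their values were seen. CTSD averaged 1207 and 579 CPM in resistant and parental libraries (log2 change 0.95), and CTSA 613 and 327 CPM (0.80).
NEU1, chr6:31862922-31862968, minus strand: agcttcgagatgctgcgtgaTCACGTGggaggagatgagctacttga
CTSD, chr11:1763948-1763994, minus strand: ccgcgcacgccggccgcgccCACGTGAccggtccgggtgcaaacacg
CTSA, chr20:45891290-45891334, plus strand: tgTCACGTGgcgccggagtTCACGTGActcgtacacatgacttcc
Capitals mark the core; in CTSD it lies on the other strand, and in CTSA the downstream site reads as the core on both strands with an overlap. TFE3 averaged 131 and 133 CPM in resistant and parental libraries (log2 change -0.13) and TFEB 11.9 and 12.8 CPM (log2 change -0.21), beside a shift of 0.11 in the median of all genes when libraries were scaled by their totals alone. TFE3 and TFEB were named after their values were seen.

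Sterol and lipid genes were higher in part. Cholesterol synthesis genes had 21 higher and 2 lower members among 25 tested, with 5 higher by 2-fold, a median of 0.53, and a share of counts of 0.511% ± 0.012 in resistant and 0.341% ± 0.020 in parental libraries. HMGCS1, which makes the substrate of HMG-CoA reductase (chromosome 5, 43289395 to 43313512), was at 300.3, 329 and 375 CPM in resistant libraries and at 98.9, 117 and 138 CPM in parental libraries (1.36 ± 0.025); it is uncertain by overlap. LSS, lanosterol synthase, averaged 260.2 and 111 CPM (1.12 ± 0.029), and CYP51A1, lanosterol demethylase, 19 and 7.32 CPM (1.27 ± 0.047). In all 3 genes the states were separate. The sterol regulatory element TCACNCCAC (1 form, both strands) was in 1 of 18 listed promoters (5.56%) and in 1.15% of all promoters.

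Fatty acid and lipid storage genes had 16 higher and 11 lower members among 31 tested (51.6% and 35.5%, beside 43.6% and 40.2% of all genes). Their median was 0.17, with shares of counts of 0.555% in resistant and 0.387% in parental libraries. SCD, the desaturase that makes oleate (chromosome 10, 100347124 to 100364834), was at 929, 963 and 1225 CPM in resistant libraries and 309, 429 and 488 CPM in parental libraries (1.26 ± 0.028). CPT1A, which admits fatty acids to mitochondria, averaged 39.6 and 16.3 CPM (1.17 ± 0.033), and ACSS2, which makes acetyl-CoA from acetate, 48.8 and 20.8 CPM (1.12 ± 0.028). Sphingolipid genes had 15 higher and 12 lower members among 30 tested (50.0% and 40.0%, median 0.11). SGPP2, a sphingosine phosphatase, averaged 18.2 and 5.38 CPM (1.66 ± 0.048).

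**Figure D3:**
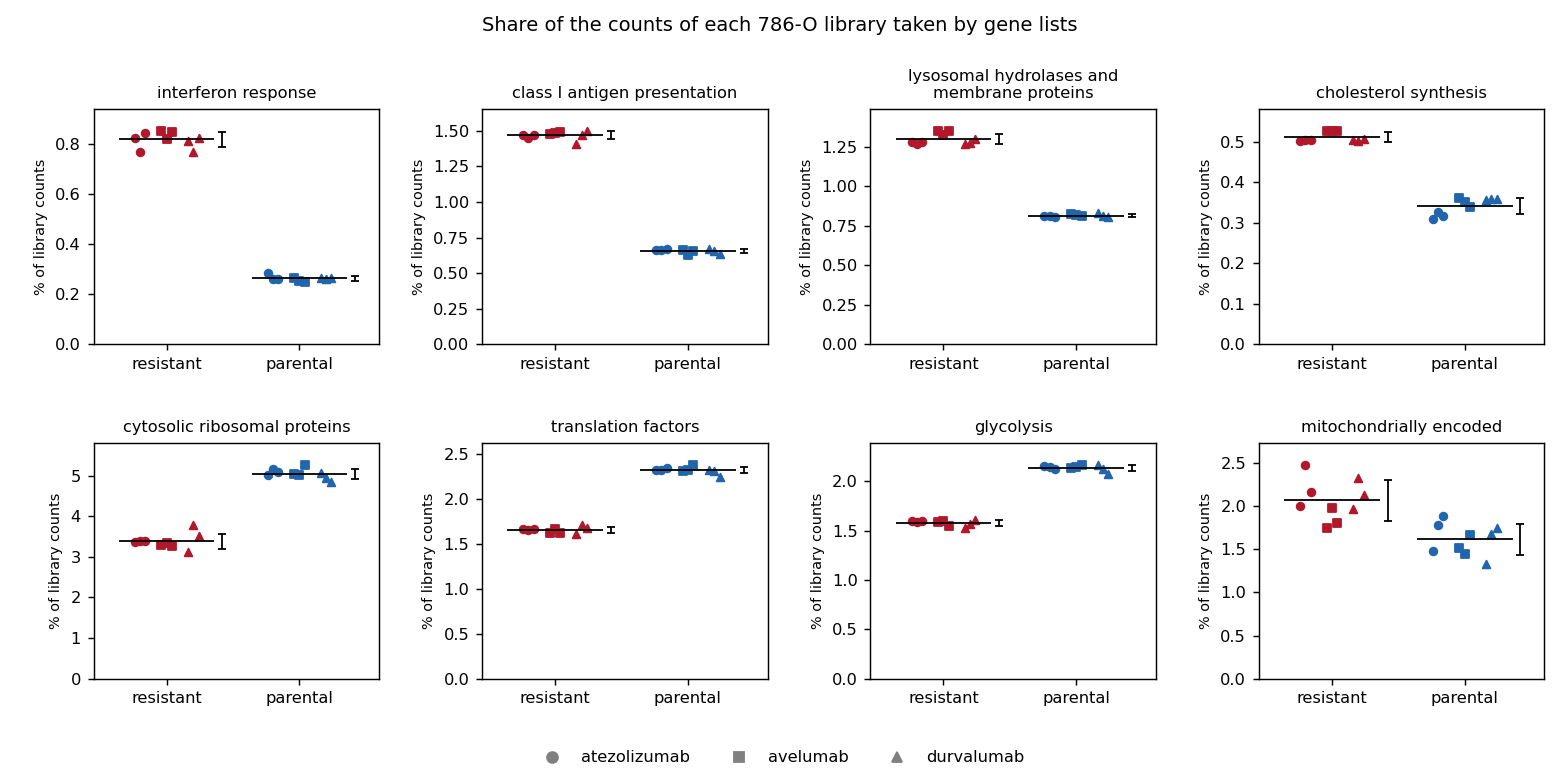
Percent of each library's counts taken by 8 gene lists (axes from 0), resistant left of parental, with a marker for each antibody, a line at the mean of 9 libraries and a bar of ± SD beside it. The states are separate in the interferon, class I, lysosomal, cholesterol, ribosomal, translation and glycolysis panels, and overlap for mitochondrially encoded genes.

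The kinases that sunitinib inhibits were mostly silent in both states. Of 20 listed target kinases and ligands, 12 had enough counts to be tested, of which 5 were higher and 5 lower (median 0.01, which changed sign with the scaling, from -0.01 to 0.11). KDR, FLT1, PDGFRA, KIT, FLT3 and RET were under the filter in both states, the highest being PDGFRA at 0.222 CPM in resistant libraries. VEGFA averaged 221 and 271 CPM in resistant and parental libraries (log2 change -0.40). The growth factor PDGFC averaged 27.1 and 54.9 CPM (-1.13 ± 0.030), and PGF 2.35 and 0.883 CPM (1.29 ± 0.096). CSF1R, the macrophage growth factor receptor, averaged 0.255 and 1.59 CPM (-2.79 ± 0.16), and PDGFD 0.0271 and 0.702 CPM (-4.67 ± 0.30). PDGFD met the filter through the parental libraries alone, so its direction, counted among the 5 lower, is not read as a result.

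Other receptor kinases and their ligands changed both ways, 16 higher and 11 lower of 27, 7 and 2 by 2-fold, with a median of 0.48. EGFR (chromosome 7, 55019021 to 55211628) was at 606, 706 and 764 CPM in resistant libraries and at 245, 267 and 308 CPM in parental libraries, without overlap (1.25 ± 0.039). EREG, which encodes the EGFR ligand epiregulin (chromosome 4, 74365143 to 74388751), moved in the opposite direction, at 18.5, 21.5 and 24.5 CPM in resistant and 206, 219 and 239 CPM in parental libraries (-3.49 ± 0.040). AREG, amphiregulin, a neighbouring gene for another EGFR ligand, averaged 2.41 and 8.44 CPM (log2 change -1.92). FGFR2 averaged 57.8 and 13.9 CPM (1.95 ± 0.036), DDR1, a collagen receptor, 71.2 and 24.3 CPM (1.44 ± 0.029), and AXL 839 and 494 CPM (log2 change 0.66), whereas MET averaged 518 and 721 CPM (-0.58). Values of AREG, AXL, MET and VEGFA were chosen after they were seen.

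Immediate early genes and feedback genes of the ERK pathway had 21 lower and 4 higher members among 28 tested, with 7 lower by 2-fold (5.67% of all genes were) and a median of -0.44. PHLDA1 averaged 71.2 and 152 CPM in resistant and parental libraries (-1.20 ± 0.032), DUSP6, an ERK phosphatase, 3.19 and 6.98 CPM (-1.23 ± 0.065), and ETV1, an ERK-induced transcription factor, 2.67 and 5.34 CPM (-1.12 ± 0.067). PHLDA1 and DUSP6 are uncertain by overlap. DUSP4, another phosphatase of the family, went the other way at 9.22 and 2.96 CPM (1.54 ± 0.064).

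ABC family genes, most of them membrane pumps, had 8 higher and 7 lower members among 16 tested (median 0.07). They took 0.136% ± 0.0056 of the counts in resistant and 0.0846% ± 0.0035 in parental libraries, a difference that came mostly from ABCA2. ABCA2, a lipid transporter of late endosomes and lysosomes, averaged 468 ± 27.2 and 114 ± 7.58 CPM (1.93 ± 0.030). ABCC3, an exporter of organic anions, averaged 162 and 55.9 CPM (1.42 ± 0.027), ABCA3, a lysosomal lipid transporter, 75.7 and 21 CPM (1.74 ± 0.030), and ABCC10 29.6 and 10.6 CPM (1.37 ± 0.038). The classic multidrug pumps moved little. ABCB1 averaged 28.2 and 31.8 CPM (log2 change -0.28) and ABCG2 3.52 and 2.79 CPM (0.22), both named after their values were seen.

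Matrix genes changed in both directions, and the share of counts they took differed little with the lower FN1 set against many gains. Of 54 tested, 33 were higher and 16 lower, with 19 and 8 by 2-fold and a median of 0.53, which was 0.23 when GC content and length were adjusted for. The list took 1.85% ± 0.092 of the counts in resistant and 1.93% ± 0.078 in parental libraries. Basement membrane genes were among the gains. COL18A1 averaged 1175 ± 97.3 and 463 ± 23.6 CPM in resistant and parental libraries (1.23 ± 0.033), HSPG2, perlecan, 1065 ± 159 and 392 ± 54.0 CPM (1.34 ± 0.11) and COL4A1 845 ± 53.7 and 392 ± 24.9 CPM (1.00 ± 0.029). COL18A1 and HSPG2 are uncertain by overlap. COL12A1, a fibril-associated collagen, averaged 73.2 ± 8.09 and 2.04 ± 0.285 CPM (5.07 ± 0.094). COL6A3, a microfibrillar collagen (chromosome 2, 237324003 to 237414375), was at 7.35, 9.72 and 11 CPM in resistant libraries and at 159, 178 and 211 CPM in parental libraries (-4.35 ± 0.067). TNC, tenascin-C, averaged 11.6 ± 1.48 and 136 ± 9.16 CPM (-3.66 ± 0.051).

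Adhesion and cytoskeleton genes shifted less. Integrin and focal adhesion genes had 15 higher and 9 lower members among 30 tested (median 0.07). TNS3, a focal adhesion adaptor, averaged 226 and 85.0 CPM in resistant and parental libraries (1.30 ± 0.031), whereas the related TNS1 averaged 20.3 and 64.0 CPM (-1.76 ± 0.052). The integrin subunits ITGA1 (16.3 and 3.94 CPM, 1.94 ± 0.051) and ITGA4 (5.97 and 0.811 CPM, 2.78 ± 0.082) were higher. Actin cytoskeleton genes had 23 lower and 12 higher members among 38 tested (median -0.21), and took 4.05% of the counts in resistant and 4.56% in parental libraries. The smooth muscle genes TAGLN (15 and 3.30 CPM, 2.09 ± 0.060) and ACTA2 (13.5 and 4.89 CPM, 1.36 ± 0.058), both uncertain by overlap, were higher, and TPM2 was lower (2.12 and 4.34 CPM, -1.13 ± 0.096). Annexins and S100 genes had 5 higher and 8 lower members among 19 tested, with a median of -0.02 that was 0.09 with libraries scaled by their totals alone. S100A16 averaged 149 and 318 CPM (-1.20 ± 0.023).

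Targets of the YAP coactivator and TEAD factors had 16 higher and 6 lower members among 23 tested, with a median of 0.31 and a share of counts of 0.529% ± 0.013 in resistant and 0.333% ± 0.0075 in parental libraries. CRIM1, a transmembrane BMP-binding protein, averaged 802 and 335 CPM (1.15 ± 0.026), AMOTL2, a junctional inhibitor of YAP, 424 and 182 CPM (1.11 ± 0.024), F3, tissue factor, 116 and 51.5 CPM (1.07 ± 0.030), and NUAK2, a kinase, 89.2 and 29.5 CPM (1.49 ± 0.032). The TEAD core GGAATG (both strands) was in 7 of 17 listed promoters (41.2%) and in 14% of all promoters. TGF-β and BMP response genes had 19 higher and 6 lower members among 26 tested (median 0.40). SMAD6, an inhibitor of BMP signalling, averaged 45.1 and 12.7 CPM (1.71 ± 0.036), and TGFBR3, betaglycan, 7.03 and 1.06 CPM (2.61 ± 0.083). SNAI1, a repressor of epithelial genes, averaged 4.67 and 11.4 CPM (-1.39 ± 0.054).

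Epithelial and renal markers gave no common direction. Keratin and junction genes had 18 higher and 12 lower members among 31 tested, with a median of 0.47 that turned to -0.06 with the strict filter, and took 0.712% of the counts in resistant and 0.925% in parental libraries. JUP, plakoglobin, averaged 42.0 and 2.67 CPM (3.87 ± 0.044), PKP2, plakophilin-2, 21.6 and 4.99 CPM (2.01 ± 0.042), and KRT19 103 and 194 CPM (-1.02 ± 0.027). CDH6, a cadherin of the renal tubule (chromosome 5, 31193750 to 31329146), averaged 25.6 ± 4.31 and 124 ± 10.4 CPM (-2.40 ± 0.034). Renal markers had 8 higher and 6 lower members among 16 tested (median 0.07, and -0.28 with the strict filter). ANPEP, a brush border peptidase, averaged 129.8 and 46.7 CPM (1.37 ± 0.025), and CDH16, a kidney cadherin, 5.92 and 2.57 CPM (1.07 ± 0.068). CALB1 averaged 0.586 and 0.00284 CPM, with 1 parental library above 0. It met the filter through the resistant libraries alone, so its direction, counted among the 8 higher, is not read as a result.

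**Figure D4:**
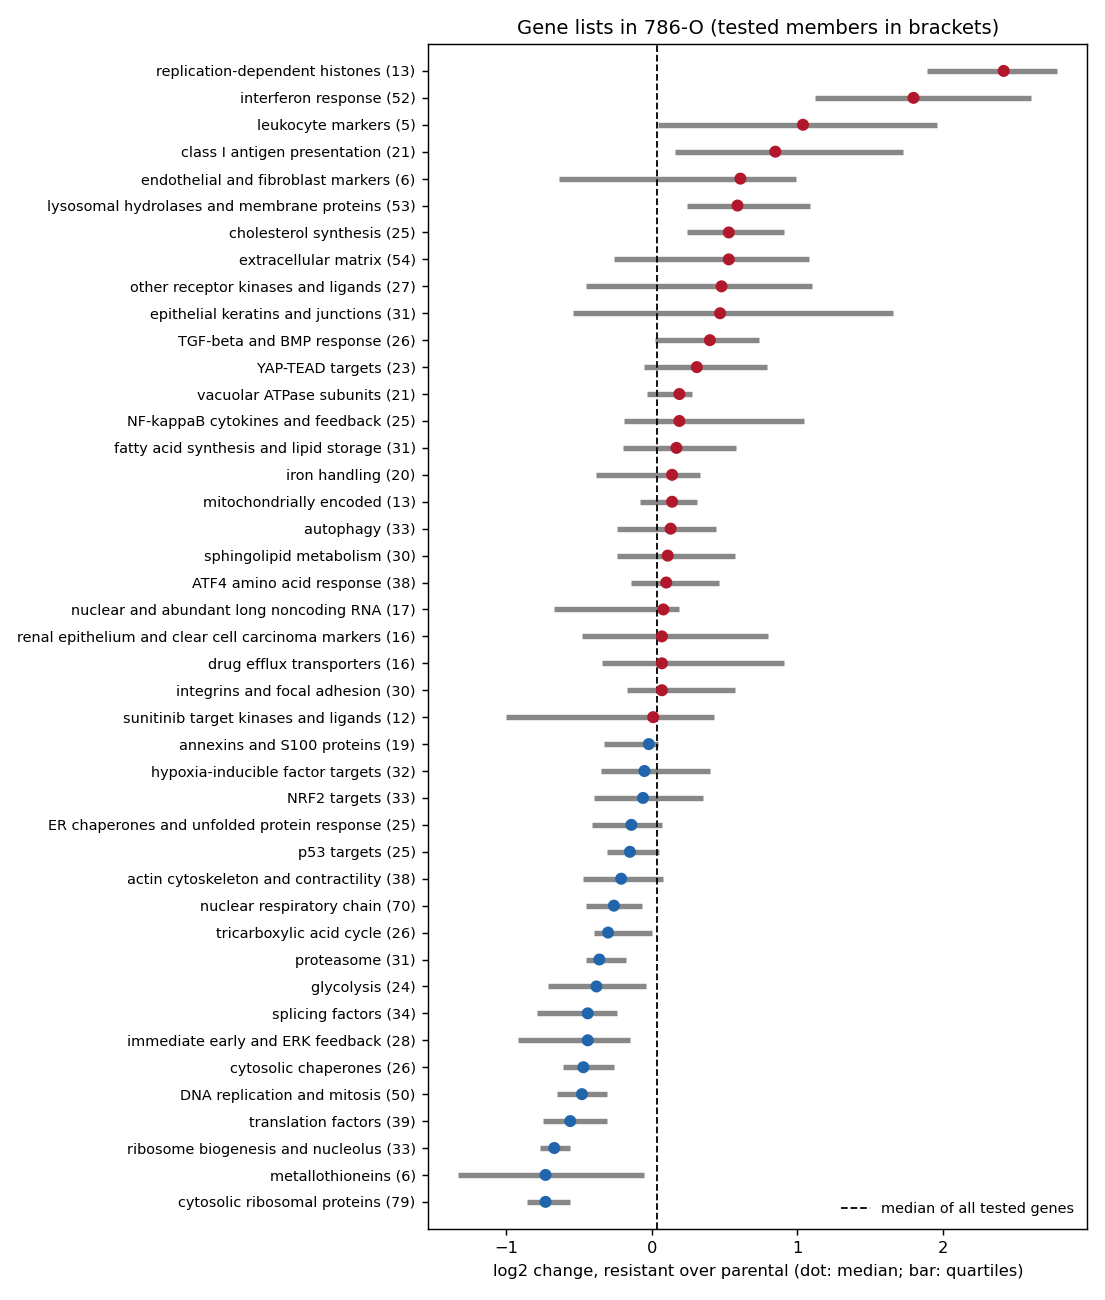
Median log2 change (dot) and quartiles (bar) of the tested members of each of 43 gene lists, ordered by median, with the number of tested members in brackets and the median of all tested genes (0.03) as a dashed line. Red dots lie above 0 and blue dots below it, and the ABC family list is labelled drug efflux transporters. Histone (13 tested genes, 4 with the strict filter), interferon, leukocyte marker (5 tested genes near 0 CPM) and class I lists lie highest. Ribosomal protein, metallothionein, nucleolar and translation lists lie lowest.

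Genes for making proteins were lower in nearly all cases. Cytosolic ribosomal protein genes had 78 lower and 0 higher members among 79 tested (40.2% of all genes were lower), with a median of -0.73. They took 3.38% ± 0.18 of the counts in resistant and 5.05% ± 0.12 in parental libraries, without overlap, and the median was -0.61 when GC content and length were adjusted for. RPLP0, of the ribosomal stalk, averaged 935 ± 27.9 and 1801 ± 46.3 CPM in resistant and parental libraries (-1.05 ± 0.024), and RPL10 566 ± 26.2 and 1210 ± 18.2 CPM (-1.20 ± 0.025). Single members are uncertain because of pseudogenes. Translation factors had 37 lower and 1 higher members among 39 tested (median -0.56), at 1.65% of the counts in resistant and 2.32% in parental libraries. Nucleolar and ribosome biogenesis genes had 32 lower and 0 higher members among 33 tested (median -0.67). NPM1, nucleophosmin (chromosome 5, 171387116 to 171411137), was at 672, 723 and 855 CPM in resistant libraries and at 1413, 1520.4 and 1576 CPM in parental libraries (-1.14 ± 0.035). FBL, the rRNA methyltransferase fibrillarin, averaged 54.0 and 131 CPM (-1.38 ± 0.027), and GAR1, of the pseudouridylation complex, 18.6 and 39.6 CPM (-1.21 ± 0.033). The snoRNA host genes SNHG5 (78.1 and 166 CPM, -1.20 ± 0.037), GAS5 (61.7 and 122 CPM, -1.09 ± 0.034) and SNHG1 (31.1 and 64.3 CPM, -1.16 ± 0.038) were lower too, while the list of abundant noncoding RNAs they belong to had 7 higher and 7 lower members among 17 tested (median 0.08).

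Splicing, chaperone and proteasome lists also had medians below 0. Splicing factors had 30 lower and 1 higher members among 34 tested (median -0.44), and took 0.761% of the counts in resistant and 1.01% in parental libraries. HNRNPA1 averaged 391 and 873 CPM (-1.27 ± 0.024) and has pseudogenes, and SRSF3 averaged 163 and 326 CPM (-1.10 ± 0.027). Cytosolic chaperones had 21 lower and 4 higher members among 26 tested (median -0.47), with HSP90AB1 at 1838 and 2429.6 CPM (-0.51 ± 0.023). Proteasome subunits had 26 lower and 2 higher members among 31 tested (median -0.36, and -0.22 with GC content and length adjusted for), with PSMD2 at 761 and 1076 CPM (-0.61 ± 0.024). Chaperones of the endoplasmic reticulum had 15 lower and 8 higher members among 25 tested, with a median of -0.14 that was -0.03 with library totals alone and -0.06 with the strict filter. They took 0.899% of the counts in resistant and 0.91% in parental libraries, with HSPA5, BiP, at 821 and 1080.2 CPM (-0.51 ± 0.025) and HSP90B1 at 582 and 809.8 CPM (-0.58 ± 0.023).

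Glycolytic and nuclear-encoded mitochondrial genes were more often lower than higher. Glycolytic genes had 18 lower and 5 higher members among 24 tested (median -0.38), and took 1.58% ± 0.028 of the counts in resistant and 2.13% ± 0.029 in parental libraries. LDHB, lactate dehydrogenase B, averaged 5.21 ± 2.24 and 21.9 ± 1.94 CPM (-2.22 ± 0.16), uncertain by overlap and pseudogenes. Tricarboxylic acid cycle genes had 18 lower and 5 higher members among 26 tested, with a median of -0.30 that was -0.17 with GC content and length adjusted for and -0.19 with library totals alone. Their share of counts was level, at 0.28% in resistant and 0.281% in parental libraries. IDH1, the cytosolic NADPH-forming isocitrate dehydrogenase, averaged 262 and 112 CPM in resistant and parental libraries (1.13 ± 0.025), and OGDH, a subunit of the 2-oxoglutarate dehydrogenase complex, 186 and 98.4 CPM (0.81 ± 0.023). Nuclear genes of the respiratory chain had 52 lower and 7 higher members among 70 tested, with a median of -0.26 that was -0.18 and -0.15 under those settings, and ATP5F1B, the catalytic β subunit of ATP synthase, at 599 and 913 CPM (-0.72 ± 0.024). Of 13 mitochondrially encoded genes 6 were higher and 1 lower, and the 46.2% higher lay near the 43.6% of all tested genes. Their median was 0.14, and -0.01 under avelumab. MT-CO1, a subunit of cytochrome oxidase, ran from 4605 to 6185 CPM in resistant and from 2781 to 4110.1 CPM in parental libraries (0.53 ± 0.069). The list's share ran from 1.75% to 2.48% in resistant and from 1.33% to 1.89% in parental libraries, with overlap.

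Hypoxia-inducible factor targets had no common direction, with 12 higher and 16 lower of 32 and a median of -0.05 that was 0.05 with libraries scaled by their totals alone and 0.02 when GC content and length were adjusted for. Their share of counts was higher, at 0.803% ± 0.038 in resistant and 0.645% ± 0.019 in parental libraries, without overlap. IGFBP3, which binds insulin-like growth factors (chromosome 7, 45912245 to 45921874), was at 974, 1063 and 1355 CPM in resistant libraries and at 285, 367 and 395 CPM in parental libraries (1.56 ± 0.035). NDRG1, a stress-induced gene, averaged 944 ± 129.8 and 313 ± 22.7 CPM (1.48 ± 0.035). INHBB, an activin subunit, averaged 4.47 and 39.2 CPM (-3.24 ± 0.046). EPAS1, which encodes the factor HIF-2α that 786-O uses, averaged 243 and 170 CPM in resistant and parental libraries (log2 change 0.41).

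Proliferation genes were lower by small amounts. DNA replication and mitosis genes had 42 lower and 5 higher members among 50 tested (median -0.48), with 2 lower by 2-fold, and took 0.696% ± 0.0086 of the counts in resistant and 0.861% ± 0.0085 in parental libraries. RRM2, a subunit of ribonucleotide reductase, averaged 204 ± 6.28 and 451 ± 18.4 CPM (-1.25 ± 0.023), and CDC45, of the replicative helicase, 31.8 and 61.3 CPM (-1.05 ± 0.032). Listed histone genes had 12 higher and 1 lower members among 13 tested, out of 21, with a median of 2.42. Members low in parental cells could enter the test through the resistant libraries, so this count is in part set by the filter. With the strict filter 4 members were left, with a median of 2.69. H2BC12 averaged 63.3 ± 3.71 and 8.51 ± 0.954 CPM (2.79 ± 0.039), and H1-2 21.1 and 3.64 CPM (2.42 ± 0.053), both uncertain as family members. Libraries of polyadenylated RNA capture transcripts of clustered histone genes poorly, and the list took 0.0131% of the counts in resistant and 0.00227% in parental libraries. Targets of p53 had 16 lower and 6 higher members among 25 tested (median -0.15). MDM2, the ubiquitin ligase of p53, averaged 27.8 and 60.2 CPM (-1.22 ± 0.035), and GDF15, a stress cytokine, 151 and 55.5 CPM (1.33 ± 0.063).

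Stress and metal genes were divided. Genes of the ATF4 amino acid response had 20 higher and 13 lower members among 38 tested (median 0.10). These were 52.6% and 34.2%, beside 43.6% and 40.2% of all genes. STC2, a secreted glycoprotein, averaged 32.7 ± 0.943 and 248 ± 15.1 CPM in resistant and parental libraries (-3.03 ± 0.032), NUPR1 25.6 and 5.60 CPM (2.08 ± 0.070), and ATF3 30.6 and 11.9 CPM (1.26 ± 0.042). NRF2 targets had 13 higher and 16 lower members among 33 tested, with a median of -0.06 that was 0.04 with libraries scaled by their totals alone and 0.08 when GC content and length were adjusted for. AKR1B10, an aldo-keto reductase, averaged 1.47 and 6.05 CPM (-2.14 ± 0.072). The antioxidant response core TGACNNNGC (both strands) was in 7 of 26 listed promoters (26.9%) and in 13.6% of all promoters. Iron genes had 11 higher and 8 lower members among 20 tested (55.0% and 40.0%, median 0.14). STEAP2, a metalloreductase, averaged 4.90 and 1.92 CPM (1.24 ± 0.069), and BMP6, an inducer of hepcidin, 26.2 and 52.0 CPM (-1.10 ± 0.041). Of 6 metallothioneins tested 4 were lower and 1 higher (median -0.73), with MT2A at 359 ± 30.8 and 736 ± 60.8 CPM (-1.14 ± 0.057) and MT1E at 108 and 264 CPM (-1.39 ± 0.035), both uncertain as family members.

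Among genes of at least 50 CPM in the higher state, the highest changes not yet described included those of RELN and L1CAM. RELN, reelin, an extracellular glycoprotein of neuronal migration, averaged 97.6 ± 11.7 and 3.12 ± 0.479 CPM in resistant and parental libraries (4.87 ± 0.085). L1CAM, a neural adhesion molecule (chromosome X, 153861514 to 153886174), was at 449, 506 and 529.6 CPM in resistant libraries and at 15.8, 20.9 and 22.1 CPM in parental libraries (4.55 ± 0.047), uncertain by an overlap of 11%. The related NRCAM averaged 75.5 and 3.92 CPM (4.16 ± 0.046). SAA1, an acute phase protein, averaged 106 and 6.04 CPM (4.03 ± 0.039), SPINT1, an inhibitor of the HGF activator, 101 and 5.73 CPM (4.03 ± 0.038), MYO1D, an unconventional myosin, 63.6 and 3.61 CPM (4.03 ± 0.040) and the noncoding CPB2-AS1 71.9 and 3.76 CPM (4.15 ± 0.046). UCA1, a long noncoding RNA, averaged 196 ± 11.6 and 37.9 ± 4.76 CPM (2.27 ± 0.031), uncertain by overlap.

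The lowest changes at this level included ALDH2, the mitochondrial aldehyde dehydrogenase (chromosome 12, 111766887 to 111817529), at 1.70, 1.90 and 2.61 CPM in resistant libraries and 47.8, 50.1 and 52.9 CPM in parental libraries (-4.72 ± 0.052). SYT13, a synaptotagmin, averaged 6.50 and 73.9 CPM (-3.62 ± 0.033), LPXN, leupaxin, a focal adhesion protein, 22.2 and 123 CPM (-2.58 ± 0.030), and WSCD1 10.1 and 52.5 CPM (-2.48 ± 0.033). RHOF, a small GTPase, averaged 16.6 and 91.2 CPM (-2.57 ± 0.034) but 71.0% of its exonic bases overlap another gene. Switches between high and near absent were rare. Only CYBRD1 and LGALS9 were at 10 CPM or more in resistant and under 0.1 CPM in parental libraries, and 0 genes showed the reverse.

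Markers of other cell types stayed close to 0. Of 12 leukocyte markers 5 could be tested, 3 higher and 0 lower (median 1.04), and the list took 0.000182% of the counts in resistant and 9.1e-05% in parental libraries. Genes this low can be tested through 1 state alone, so directions in this and the next list are not read as results. CD8A averaged 0.466 and 0.113 CPM (1.96 ± 0.22), and TYROBP was at 0 in all 18 libraries. Of 12 endothelial and fibroblast markers 6 were tested, 4 higher and 2 lower, with shares of 0.00122% and 0.000764%. VWF averaged 0.464 and 0.00284 CPM, with 1 parental library above 0.

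The change was much alike under the 3 antibodies. The contrast was passed by 71.9% of the genes under atezolizumab, 73.1% under avelumab and 71.2% under durvalumab. Of the 16232 genes that passed the averaged contrast, 15816 had the same sign under each antibody, and 11591 also passed under each. The averaged contrast is the mean of these 3 contrasts, so picking genes by it favours agreement among them. Of the 2811 genes that were 2-fold higher, 2538 passed under each antibody, and of the 1098 that were 2-fold lower, 976 did. A test with 2 degrees of freedom for a dependence on the antibody was passed by 119 genes (0.614%), and 2884 had an unadjusted p under 0.05. With no dependence, a share of about 0.05 of the 19369 tested genes would have such a p, fewer than were found. The count of 119 rests on single libraries. It was 1156 without resistant durvalumab replicate 1, 365 without resistant avelumab replicate 1, 79 without resistant avelumab replicate 3 and 63 without replicate 2 of that group. It was 60 without resistant atezolizumab replicate 2 and also without replicate 3, 57 without parental atezolizumab replicate 1, 54 without parental avelumab replicate 2, 56 without replicate 3 of that group and 68 without parental durvalumab replicate 2.

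The 4 genes of lowest interaction p are given by antibody. MAP7D2, a microtubule-binding protein, was at 25.0, 24.3 and 23.9 CPM in resistant libraries with avelumab, against 12.1, 13.6 and 11.9 CPM in parental libraries (log2 change 0.84 ± 0.070). The changes were 0.11 ± 0.077 with atezolizumab and 0.04 ± 0.073 with durvalumab (interaction adjusted p = 6.55e-05, edgeR). TXNIP, an inhibitor of glucose uptake, changed by -0.28 with atezolizumab, 0.47 with avelumab and 0.15 with durvalumab (interaction adjusted p = 6.55e-05, edgeR). ATOH8, a transcription factor, changed by 2.35, 1.39 and 1.44 in the same order, and UAP1L1 by 1.99, 1.61 and 1.65 (interaction adjusted p = 0.000105 and 0.00218, edgeR). In ATOH8 the parental atezolizumab libraries stood lowest, at 4.27, 4.53 and 3.35 CPM. The lipid genes HMGCS1, LSS and SCD also depended on the antibody. SCD was at 946, 931 and 929 CPM in resistant and 309, 328 and 323 CPM in parental libraries with atezolizumab (1.44 ± 0.048), and at 1017, 963 and 955 CPM in resistant and 431, 429 and 488 CPM in parental libraries with durvalumab (1.02 ± 0.048).

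Changes followed the GC content and length of the transcripts to some degree. Over 9135 protein coding genes of at least 10 CPM, which are not independent replicates, Spearman's rho between the log2 change and GC content was 0.263, and with length it was 0.177. The median change by GC quartile, from low to high, was -0.26, -0.15, -0.05 and 0.06. Short transcripts of low GC content had a median of -0.44 (283 genes), and long transcripts of high GC content 0.40 (263 genes). The part of GC content and length in the differences above was not tested. A model with an offset for GC content and length called 84.1% of genes, and 2845 higher and 954 lower by 2-fold.

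Neighbouring genes also moved together in places. Over protein coding genes, the median log2 change was 0.26 on chromosome 15, 0.24 on chromosome 9 and 0.17 on chromosome 17, and -0.29 on chromosome 12, -0.22 on chromosome 22 and -0.21 on chromosome 21. On chromosome 15, 70.1% of the genes were above 0, and on chromosome 12 30.4% were. With GC content and length adjusted for, these medians were 0.33, 0.24, 0.15, -0.23, -0.31 and -0.16. In blocks of 50 neighbouring genes of at least 10 CPM, picked by their median and so without a test, the lowest was on chromosome 12 from XPOT to MRPL42 (64404350 to 93516213), where 43 genes were lower and 3 higher, with a median of -0.60. The highest was on chromosome 9 from FNBP1 to AGPAT2 (129887187 to 136687423), where 33 genes were higher and 9 lower, with a median of 0.43. With GC content and length adjusted for, the medians of these blocks were -0.43 and 0.22. The middle 98% of 7987 overlapping blocks lay between -0.51 and 0.35. DNA copy number was not measured in these files.

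**Figure D5:**
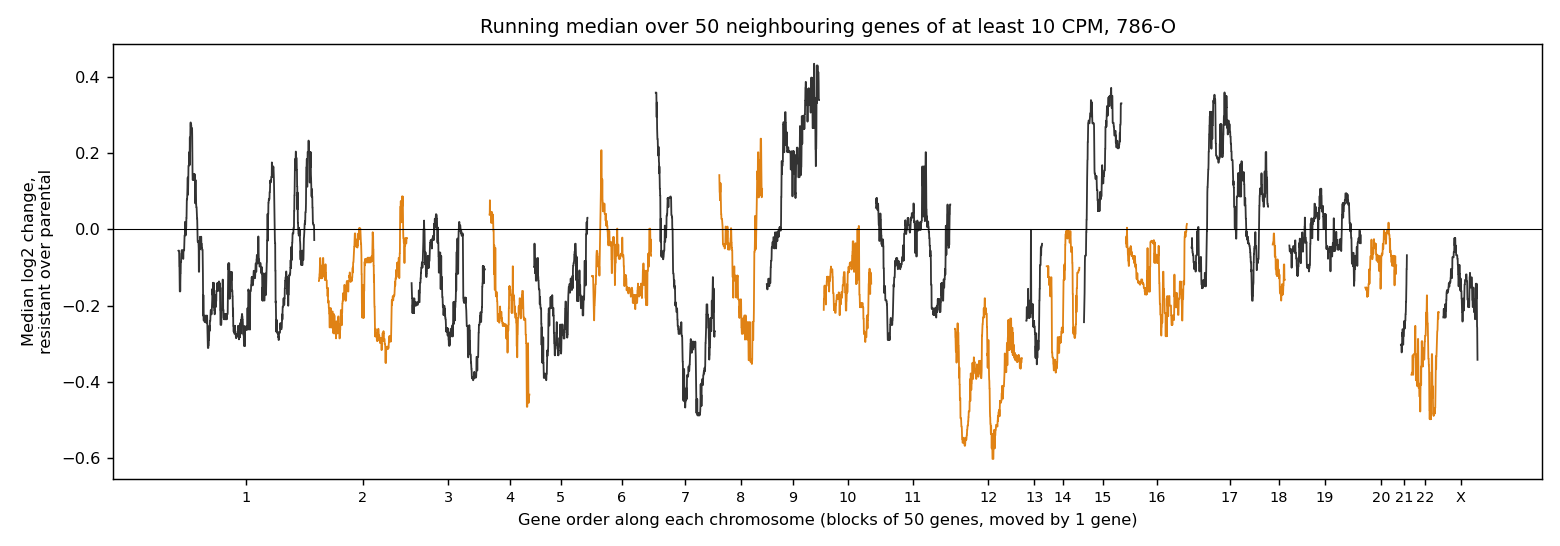
Running median of the log2 change (resistant over parental) over blocks of 50 neighbouring protein coding genes of at least 10 CPM, in gene order along each chromosome, with alternating colours by chromosome. Blocks on chromosome 12 reach down to -0.60, and blocks on chromosome 9 up to 0.43.

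Short runs of 15 neighbouring genes picked out known clusters. The highest median, 2.55, lay on chromosome 19 (42297033 to 43269530) and included the pregnancy-specific glycoprotein genes PSG1 to PSG5 and PSG7 to PSG9, with 12 genes higher and 1 lower. The clustered histone genes on chromosome 6 (25962802 to 26285638) followed at 2.22, and the protocadherin β and γ cluster on chromosome 5 (141094578 to 141512979) at 1.75. The run over TAP1, TAP2, PSMB8, PSMB9 and HLA class II genes on chromosome 6 (32180968 to 33087201) had a median of 1.47. Single PSG, histone, protocadherin and HLA genes are uncertain as family members. The lowest median, -0.87, lay on chromosome 4 (73571550 to 75630716), a run that holds CXCL chemokine genes beside EREG, AREG and BTC, with 9 genes lower and 4 higher. It was -0.45 when GC content and length were adjusted for. CXCL8 in this run averaged 46.9 and 25.3 CPM in resistant and parental libraries (log2 change 0.79) and CXCL1 2.84 and 5.57 CPM (-1.09).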

How the data were processed

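A single table with a raw read count for each gene in each library was deposited by the authors. The submitters' processing notes name HISAT2 2.1.0, featureCounts 1.6.3, bcl2fastq 2.19.0 and Trimmomatic 0.36.6, and the build GRCh38. Polyadenylated RNA was sequenced from a kit that keeps strand, per the labels' protocols. The annotation release is not given in the sources used here. Coordinates and overlaps come from GENCODE 29 on GRCh38, which held 43799 of the 45478 genes in the table, and promoters from RefSeq (GRCh38.p14).

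The 18 libraries entered 1 edgeR fit (version 4.0.16, R 4.3.3) with a mean for each of 6 groups and robust quasi-likelihood, after TMM scaling and the filterByExpr filter (count minimum 10, total minimum 15). Resistant minus parental was tested as the average over the antibodies, under each antibody and for an interaction. P-values were adjusted over all tested genes at 0.05. The code recovered known changes when tested on simulated data in which most genes were unchanged. Most genes differed here, so the simulation did not test the scaling in a like setting. Reads were counted without molecular identifiers. Within each group no pair of replicates agreed within sampling noise; pairs across groups were not compared.

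Genes named were the 12 largest gains and 12 largest losses in CPM, the 10 genes of highest CPM, the 10 highest and 10 lowest log2 changes among genes of at least 50 CPM in the higher state, up to 4 genes of each of 43 lists, and the 4 of lowest interaction p at 10 CPM or more. Apart from the 10 genes of highest CPM and the interaction genes, they had to pass under each antibody with 1 sign. Ribosomal protein and mitochondrially encoded genes were kept out of the gains and losses, and a symbol was required. Some genes that the rules pick are not reported here. The comparison, the lists and these rules were chosen with earlier results of these data known. Alternatives were DESeq2 1.42.0, other scalings, filters, a replicate block, all 36 libraries in the fit, each library left out in turn, and an offset for GC content and length, which was chosen after seeing the data, as were the blocks of 50 genes. Replicate numbers did not pair the libraries.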

Additional observations from a re-analysis of the deposited data

Results flagged for a closer look

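Among 430 groups of 9 libraries examined, 23 (5.35%) had a library whose gap to the nearest of the others, as a share of the range, was above the critical value of 0.493; chance gives about 1 in 20 groups. Parental durvalumab replicate 3 was highest of the parental libraries for IGFN1 (488 CPM), AHNAK (1505 CPM), PKP2 (5.72 CPM), ABCC3 (63.6 CPM) and the ABC family share (0.093% of counts), and lowest for VIM (5819 CPM) and the glycolysis share (2.07%). Resistant durvalumab replicate 2 was highest of the resistant libraries for RPS12 (367 CPM), NPM1 (855 CPM), HSP90B1 (631 CPM) and the splicing factor share (0.794%), and lowest for ITGA3 (2295 CPM) and FLNA (5732 CPM). Among other resistant libraries, durvalumab replicate 1 was lowest for HSPA5 (750.1 CPM), avelumab replicate 2 lowest for MT1E (90.7 CPM), and avelumab replicate 3 lowest for UCA1 (169 CPM) and highest for the sphingolipid share (0.231%). Among other parental libraries, avelumab replicate 3 was highest for FBL (142 CPM) and PSMD2 (1222 CPM), atezolizumab replicate 3 for ATF3 (15.4 CPM), atezolizumab replicate 1 for the interferon share (0.286%), and durvalumab replicate 2 for VWF and CALB1 (0.0256 CPM each).

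The change depended on the antibody for 10 named genes, by the interaction test of edgeR with adjusted p over all genes. MAP7D2 and TXNIP had an adjusted p of 6.55e-05 each, ATOH8 0.000105 and UAP1L1 0.00218; these 4 were named for their low interaction p. SCD had 0.00366, UCA1 0.00649, HMGCS1 0.00831, LSS 0.0391, CDH6 0.0403 and DUSP6 0.05 after rounding, below the threshold before it. UCA1 changed by 2.51, 2.06 and 2.24 (log2) under atezolizumab, avelumab and durvalumab, CDH6 by -2.46, -2.19 and -2.55, and DUSP6 by -0.89, -1.62 and -1.19.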

How the results depend on the processing

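The total of genes past the threshold in the averaged contrast moved little with DESeq2, other scalings and single libraries left out. Its split by direction moved more with library totals alone, to 9788 higher and 6520 lower, against 8443 and 7789. Leaving out each library gave 16187 to 16367 calls, 8373 to 8534 higher and 7732 to 7858 lower, 2850 to 2975 and 1126 to 1174 of them by 2-fold, and 13347 to 14178, 13469 to 14414 and 13038 to 13942 under atezolizumab, avelumab and durvalumab. With a replicate block 16216 genes passed and 115 for the interaction; the numbers do not pair the libraries, since the correlation of same-numbered deviations ran from -0.15 to 0.13 and 8 of 18 libraries were closest to their own number. The strict filter, which tests 11652 genes, gave 10264 calls, 5138 higher and 5126 lower, 776 and 287 by 2-fold, and 9269, 9259 and 9118 under the 3 antibodies. With no filter, 38263 genes were tested and 5018 were higher and 1708 lower by 2-fold. The interaction count was 429 with DESeq2, 225 with the GC and length offset, 383 with all 36 libraries, 691 with no filter, and 54 to 1156 with a library left out; the cause was not tested. List medians that turned sign were epithelial genes (-0.06) and renal markers (-0.28) under the strict filter, NRF2 targets (0.08 with the offset, 0.04 with library totals alone, 0.02 with the strict filter), hypoxia-inducible factor targets (0.02, 0.05 and 0.03), annexins and S100 genes (0.09 with library totals, 0.07 with the strict filter) and sunitinib targets (-0.01 with the offset). MYH9 turned to -0.36 with the offset, and was 0.14 with library totals and 0.11 with the strict filter. Of 4449 values over named genes and settings, 4444 kept direction and side of the threshold. Library totals alone moved the median of all genes by 0.11 and the higher share of calls to 60.0%, against 52.0%. Resistance and batch cannot be told apart under any setting, and depth limits genes under 1 CPM.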
